A study of Mus musculus with 12 samples.

Results

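The 10 genes Elf3, Ehf, Foxa2, Msx1, Msx2, Sox9, Grhl2, Tfcp2l1, Pax8 and Emx2 encode transcription factors of the uterine epithelium. They were chosen by name as factors known from that tissue. The rule used no measured value, but earlier results of these data were known when the genes were chosen. All 10 were found among the 35896 genes of the tables. All 10 also passed the filter on low counts, which left 12052 genes for testing.

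The epithelium of the uterus lines the lumen and forms the glands, and it grows, secretes and sheds under estrogen and progesterone. The factors belong to several DNA-binding families. Elf3 and Ehf are epithelial members of the ETS family. Foxa2 is a forkhead factor of the glands, which need it to form and to secrete. Msx1 and Msx2 are homeobox factors that control epithelial junctions and WNT signalling and help to make the uterus receptive to an embryo. Sox9 is known for progenitor and gland cells of many epithelia. Grhl2 and Tfcp2l1 come from the wider grainyhead family, of which Grhl2 maintains junction genes such as the one for E-cadherin. Pax8 and Emx2 are developmental factors of the Müllerian duct, from which the uterus arises, and both stay on in the adult tract.

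The samples were whole uteri of 12 wild type Swiss Webster females, an outbred stock, aged between 8 and 12 weeks. The labels placed 3 uteri each in proestrus, estrus, metestrus and diestrus, the successive stages of the cycle, and named no treatment, transgene or pooling. The replicate numbers were 1 to 3 in proestrus, 3 to 5 in both estrus and diestrus, and 5 to 7 in metestrus, and values below are given in that order. Polyadenylated RNA was read near its 3' end (TagSeq), and levels are given in CPM, the estimated counts of a gene relative to the scaled total of its library. The labels did not say how a stage was assigned, at what time of day tissue was taken or in which batch it was handled, so none of these can be told apart from the stage. The p-values measure the spread between these 12 samples.

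Library totals ran from 1652841 to 2200563 estimated counts, and 3 counts, the limit that a count of 0 allows, came to 1.37 to 1.83 CPM, for counting error only. Epithelial RNA was present in every library, with Epcam, an epithelial adhesion protein, between 111 and 454 CPM. Markers of stratified squamous epithelium summed to at most 3.99 CPM in any library. Oviduct markers summed to between 7.91 and 51.3 CPM, most of it from Ovgp1, while Foxj1 of ciliated cells stayed at or under 2.03 CPM. Ovary markers summed to between 8.7 and 25.2 CPM, mostly from Star, with Cyp17a1 at or under 0.499 CPM and Zp3 at 0. The metestrus libraries were less alike than those within each other stage. Pearson's r of log2 CPM between them was 0.972, 0.968 and 0.971, against 0.979 or more. Metestrus 7 had a summed level of 7 gland genes of 891 CPM against 12.9 to 135 CPM in the other libraries, and 17.3 CPM of the keratin gene Krt19, the lowest of all. Metestrus 5 had the lowest stromal sum, 5039.8 CPM, and the lowest proliferation sum, 93.9 CPM, against 457 CPM in metestrus 6. Its 2121 CPM of the factor gene Sox4 lay above all 3 estrus libraries. Some results that involve metestrus are therefore also given without metestrus 5 and 7 together, an alternative chosen after the data were seen. It leaves metestrus 6 as the only library of its stage, so the spread in that fit comes from the other stages alone. Its calls are not firmer evidence of a difference between stages.

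**Figure D1:**
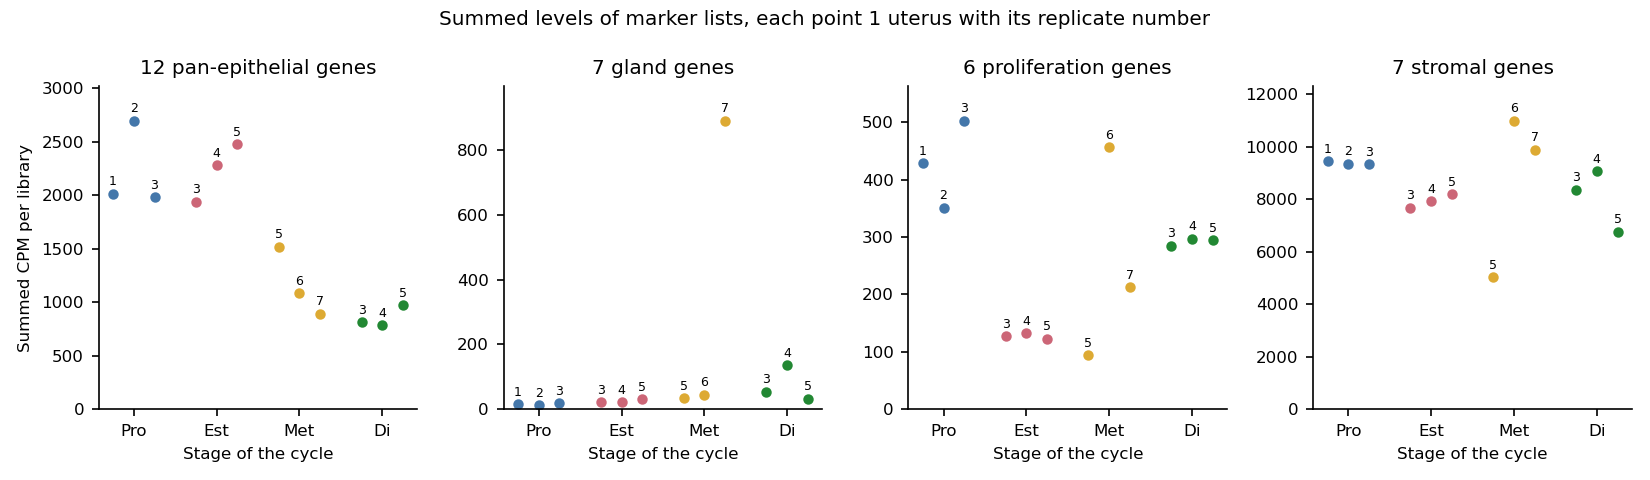
Summed CPM of 4 marker lists per library, by stage on the x axis, each point 1 uterus labelled with its replicate number. Metestrus 7 holds 891 CPM of gland genes, and metestrus 5 holds the lowest stromal and proliferation sums.

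Of the 10 factors, 8 differed over the cycle, with Elf3, Ehf, Sox9 and Pax8 highest in estrus, Msx2 and Grhl2 in proestrus, and Foxa2 and Msx1 in diestrus. Tfcp2l1 and Emx2 did not pass the test. Over all tested genes 23.2% passed the same test (edgeR quasi-likelihood F test over 4 stages, Benjamini-Hochberg adjusted p under 0.05). Without metestrus 5 and 7 the count was also 8 of 10. No called difference of a factor changed its direction under the alternative scalings to all genes, filters, tools and left-out libraries that were run, while 5 of the 20 called differences turned when libraries were scaled to epithelial markers, as given below. In whole tissue, fewer epithelial cells and less transcript per epithelial cell cannot be told apart.

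**Figure D2:**
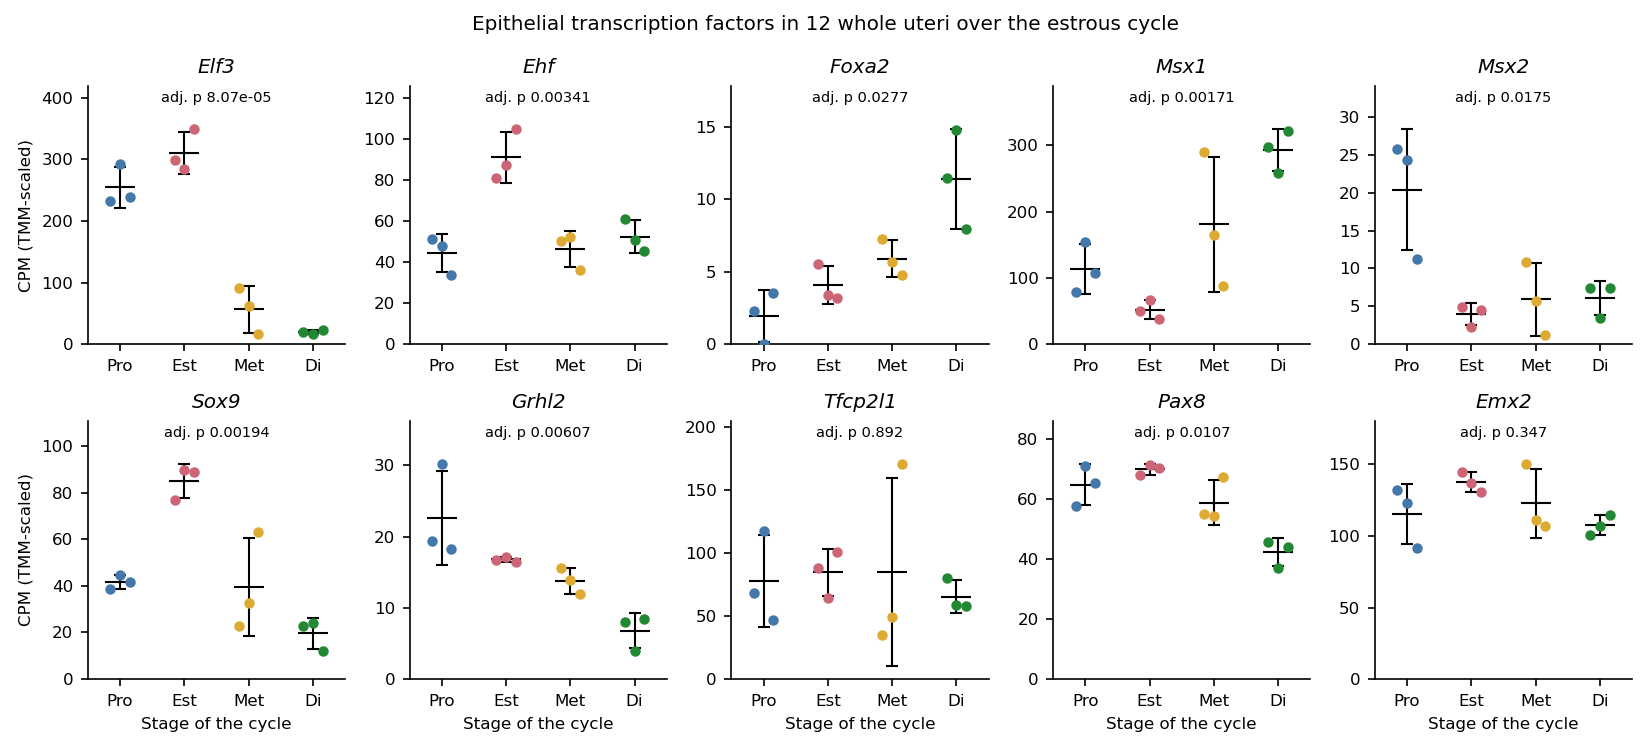
Level in CPM (y axis, linear, from 0) of each factor in each of the 12 uteri by stage (Pro, Est, Met, Di), with the mean and SD as black bars (n = 3) and the adjusted p of the F test. Elf3 drops from 284 CPM or more in estrus to 23.8 CPM or less in diestrus, while Msx1 runs the other way.

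Between successive stages the counts of factors called were read against the share of all genes called in each comparison. From proestrus to estrus 4 of 10 factors changed, Ehf and Sox9 upward and Msx1 and Msx2 downward, against 17.1% of all genes. From estrus to metestrus 4 of 10 changed, Msx1 upward and Elf3, Ehf and Sox9 downward, against 7.56%. Between metestrus and diestrus 0 of 10 passed the edgeR test, against 0.224% of all genes, or 27 genes. At an unadjusted p under 0.05 that comparison held 1361 genes, and DESeq2 called 1 factor there, Elf3. From diestrus to proestrus 5 of 10 changed, Elf3, Grhl2 and Pax8 upward and Foxa2 and Msx1 downward, against 8.53%. Across the cycle, diestrus and estrus differed in 6 of 10 factors, against 22.8% of genes, and metestrus and proestrus in 1, against 4.31%. These comparisons share libraries, so a factor that is high in estrus alone counts in more than 1 of them. The median log2 difference of the 10 factors was largest in size for diestrus against estrus, -0.55, where that of all genes was 0.00.

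**Figure D3:**
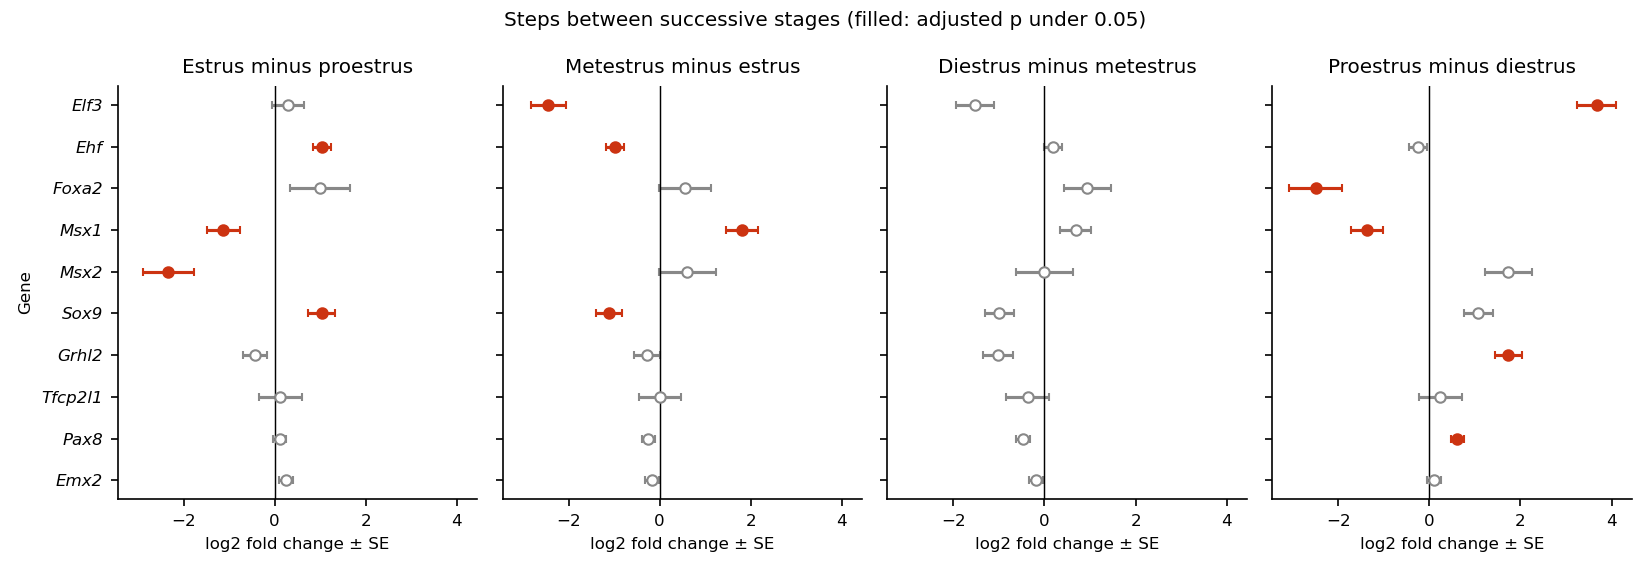
Log2 fold change with its SE (x axis) of each factor (y axis) for the 4 steps around the cycle, filled red where the adjusted p was under 0.05. No factor is filled in the step from metestrus to diestrus, and Elf3 has the largest step, 3.67 from diestrus to proestrus.

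Elf3 (ENSMUSG00000003051, chromosome 1, 135253575 to 135258568, minus strand, GRCm38) showed the widest swing of the 10 factors. Its level was 232, 293 and 238 CPM in the proestrus uteri and 299, 284 and 349 CPM in the estrus uteri. In metestrus it was 91.8, 62.5 and 16.1 CPM in replicates 5, 6 and 7, and in diestrus 19.4, 16.8 and 23.8 CPM. Every proestrus and estrus uterus lay above every metestrus and diestrus uterus, and metestrus 7 fell below all 3 diestrus uteri. From proestrus onward the stage means were 254 ± 33.4, 311 ± 33.6, 56.8 ± 38.2 and 20 ± 3.52 CPM (SD, n = 3 each), and they differed over the cycle (adjusted p = 8.07e-05).

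From estrus to metestrus Elf3 fell by 2.44 ± 0.38 on the log2 scale (SE, adjusted p = 0.0022), and without metestrus 5 and 7 the change was -2.29. Diestrus lay below estrus by 15.5-fold (log2 -3.96 ± 0.42, adjusted p = 4.81e-05), and Elf3 rose 12.7-fold from diestrus to proestrus (log2 3.67 ± 0.42, adjusted p = 0.000202). Neighbours in the order of levels were not separated at the top, where estrus and proestrus differed by 0.29 ± 0.35 (adjusted p = 0.619). Between metestrus and diestrus the log2 difference was -1.52 ± 0.42 (adjusted p = 0.165). It reached -1.96 (adjusted p = 0.0013) without metestrus 7 and -1.65 without metestrus 5 and 7, and the adjusted p was 0.0176 with DESeq2 and 0.00406 without a filter. Metestrus also lay below proestrus (log2 -2.15 ± 0.38, adjusted p = 0.0106), a call that was lost without proestrus 2 (0.0526) and in a fit to those 6 libraries alone (0.0813).

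The bases before the RefSeq start of Elf3 are shown because this gene moved most. RefSeq's promoter table, on GRCm38.p6, held windows of 250 bases before to 50 after a start for 7 of the 10 factors, and the 250 bases upstream of the start are printed, with the letters of any motif match in capitals. The last bases of the Elf3 window occur in the transcript Elf3-201, while 97% of the gene's estimated counts went to Elf3-202. The annotated 5' end of the gene, at 135258568, falls within the printed stretch, so part of it lies inside the gene.
Elf3 promoter, chr1:135258473-135258722, minus strand: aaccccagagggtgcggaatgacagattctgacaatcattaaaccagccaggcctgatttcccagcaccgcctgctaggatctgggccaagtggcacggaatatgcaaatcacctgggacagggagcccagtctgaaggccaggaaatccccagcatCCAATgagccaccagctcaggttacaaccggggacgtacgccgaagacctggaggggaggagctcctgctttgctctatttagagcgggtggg
The motifs searched on both strands were CGGAAGT (ETS), AACNGGT (grainyhead), TGTTTAC (forkhead), TAATTA (homeodomain), ACAATGG (SOX), AGGTCA (a single arm of the estrogen response element), GGTCANNNTGACC (the full element, which can overlap the single arm), TATAAA and CCAAT. In the Elf3 window CCAAT stood at -93, counted from the RefSeq start, and none of the other motifs occurred. Of all 32851 windows 37.4% held CCAAT, 6.42% CGGAAGT, 8.13% AACNGGT, 3.65% TGTTTAC, 5.29% TAATTA, 3.66% ACAATGG, 16.3% AGGTCA, 0.07% the full element and 13.6% TATAAA. A match is a description of letters and not of binding.

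Ehf (ENSMUSG00000012350, chromosome 2, 103263433 to 103303278, minus strand), the other epithelial ETS factor, was highest in estrus. Proestrus uteri had 51.3, 48.0 and 34.0 CPM, estrus uteri 81.0, 87.5 and 105 CPM, metestrus uteri 50.3, 52.4 and 36.4 CPM and diestrus uteri 61.3, 50.9 and 45.3 CPM. All 3 estrus values lay above the other 9, which overlapped each other (F test, adjusted p = 0.00341). Ehf rose 2.06-fold from proestrus to estrus (log2 1.04 ± 0.19, adjusted p = 0.00332) and was lower by 0.98 ± 0.19 in metestrus (adjusted p = 0.00942). It was lower in diestrus than in estrus by 0.80 ± 0.19 (adjusted p = 0.00834). The fall into metestrus missed the threshold without estrus 5 (log2 -0.85, adjusted p = 0.0546) and without metestrus 5 and 7 (-0.78, 0.0738). In diestrus, where Elf3 was at its lowest, Ehf stood at 52.5 ± 8.14 CPM (SD, n = 3), and the log2 difference from proestrus, proestrus minus diestrus, was -0.25 ± 0.20 (adjusted p = 0.522).

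Foxa2 (ENSMUSG00000037025, chromosome 2, 148042877 to 148046969, minus strand), the forkhead factor of the glands, was read at few counts, 131 in all 12 libraries together. It had 2.28, 0 and 3.55 CPM in proestrus, 5.57, 3.43 and 3.21 CPM in estrus, 7.26, 5.68 and 4.77 CPM in metestrus and 11.5, 14.8 and 7.92 CPM in diestrus. The 3 diestrus uteri lay above all others, and proestrus 2 had no count, which allows up to 1.59 CPM. The F test gave an adjusted p of 0.0277. That call was lost without proestrus 1 (0.0633), estrus 4 (0.0558), estrus 5 (0.0577), diestrus 3 (0.0768) or diestrus 4 (0.104). Proestrus was lower than diestrus by a fitted log2 difference of -2.50 ± 0.59 (adjusted p = 0.0171), which missed the threshold without proestrus 1 (0.0529) or diestrus 4 (0.0758). Diestrus against estrus gave 1.5 ± 0.53 (adjusted p = 0.0564), and was called without proestrus 2 (0.0182), with library totals (0.0489), without a filter (0.0367), in a fit to the 6 libraries compared (0.0133) and with a replicate block (0.0224).

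Levels of gland genes are set beside those of Foxa2. Of 7 gland genes 2 passed the filter, and 1 of these, Cxcl15, a chemokine of mouse uterine glands, differed over the cycle (adjusted p = 0.000644). The count was 2 without any 1 of metestrus 5, metestrus 6, diestrus 3 or diestrus 5. Cxcl15 was at 0 in all 3 proestrus uteri and at 41.9, 34.6 and 17.5 CPM in diestrus, so Cxcl15 and Foxa2 were both lowest in proestrus and highest in diestrus. Other gland genes took other courses. Ttr, also tested, had its highest mean in metestrus, 26.3 CPM against 15 CPM in diestrus (F test, adjusted p = 0.205). Of those not tested, Lif had its highest mean in estrus, 6.28 CPM against 1.37 CPM in diestrus, and Wfdc3 in diestrus, 4.29 CPM. Metestrus 7, with 479 CPM of Spink1, 297 CPM of Prss29 and 77.5 CPM of Prss28, held 4.77 CPM of Foxa2, the lowest of the metestrus uteri. Whether the number of gland cells contributed to the level of Foxa2 was not tested.

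Msx1 (ENSMUSG00000048450, chromosome 5, 37820485 to 37824583, minus strand) was lowest in estrus and highest in diestrus. It measured 78.7, 154 and 107 CPM in proestrus and 50.7, 66.9 and 38.5 CPM in estrus. In metestrus replicates 5, 6 and 7 it measured 290.4, 165 and 87.6 CPM, and in diestrus 298, 259 and 322 CPM. The estrus and diestrus values did not overlap with each other, while the metestrus values spanned from within the proestrus range to within the diestrus range. The stage means were 113 ± 38.2, 52.0 ± 14.3, 181 ± 102 and 293 ± 32.1 CPM from proestrus onward (SD, n = 3 each), and the F test gave an adjusted p of 0.00171. Diestrus lay 5.64-fold above estrus (log2 2.50 ± 0.37, adjusted p = 0.00045), a call that no left-out library removed.

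The single steps of Msx1 were less firm. The fall from proestrus to estrus (log2 -1.13 ± 0.36, adjusted p = 0.0483) was lost without proestrus 2 (0.18), proestrus 3 (0.0967), estrus 3 (0.118), estrus 4 (0.0587), estrus 5 (0.163), diestrus 3 (0.0639), diestrus 4 (0.0558) or diestrus 5 (0.0611). It was lost too when library totals replaced the scaling factors (0.0578) and with limma on log2(TPM + 1) (0.126). The rise into metestrus (1.81 ± 0.36, adjusted p = 0.0107) was 1.69 without metestrus 5 and 7, and lost its call without estrus 5 (0.0613) and with limma (0.0616). The fall from diestrus to proestrus (-1.37 ± 0.35, adjusted p = 0.0254) was lost without proestrus 1 (0.104), proestrus 3 (0.0948), diestrus 3 (0.0664) or diestrus 5 (0.077) and with limma (0.0847).

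Msx2 (ENSMUSG00000021469, chromosome 13, 53466884 to 53473074, minus strand), the paralog of Msx1, followed another course and was highest in proestrus. Proestrus uteri had 25.7, 24.3 and 11.2 CPM, estrus uteri 4.95, 2.29 and 4.58 CPM, metestrus uteri 10.9, 5.68 and 1.19 CPM and diestrus uteri 7.48, 3.46 and 7.36 CPM. Each proestrus value lay above the 9 others, although proestrus 3, at 11.2 CPM, was close to metestrus 5. The F test gave an adjusted p of 0.0175, and 0.0898 and 0.0834 without proestrus 1 and 2, and 0.0574 with limma. Msx2 fell 5.06-fold from proestrus to estrus (log2 -2.34 ± 0.56, adjusted p = 0.0127), and the call was lost without proestrus 1 (0.0513) or estrus 4 (0.0541). From estrus through metestrus to diestrus its steps were 0.61 ± 0.63 and 0.00 ± 0.63 (adjusted p = 0.599 and 0.999). In diestrus, where Msx1 was at 293 ± 32.1 CPM, Msx2 was at 6.10 ± 2.29 CPM. Proestrus minus diestrus was 1.73 ± 0.52 for Msx2 (adjusted p = 0.058). This difference passed the threshold without metestrus 7 (0.0168), metestrus 5 (0.026) or proestrus 3 (0.048). It also passed without a filter (0.0113) and in a fit to the 6 libraries compared (0.0141). Metestrus minus proestrus was -1.73 ± 0.53 (adjusted p = 0.081), and was called without metestrus 5 (-2.56, 0.0265) and without a filter (0.0167).

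The bases upstream of the RefSeq starts of the paralogs are shown because the 2 genes peaked in different stages. All printed Msx2 bases lie inside the gene as annotated, whose 5' end is at 53473074. Those of Msx1 lie outside its gene, which ends at 37824583, so the 2 stretches are not like regions of their genes.
Msx1 promoter, chr5:37824586-37824835, minus strand: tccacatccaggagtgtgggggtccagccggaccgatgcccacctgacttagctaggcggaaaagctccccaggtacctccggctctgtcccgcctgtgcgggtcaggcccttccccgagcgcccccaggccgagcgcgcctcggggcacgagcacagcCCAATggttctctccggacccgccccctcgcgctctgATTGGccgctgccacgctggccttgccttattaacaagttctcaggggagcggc
Msx2 promoter, chr13:53472781-53473030, minus strand: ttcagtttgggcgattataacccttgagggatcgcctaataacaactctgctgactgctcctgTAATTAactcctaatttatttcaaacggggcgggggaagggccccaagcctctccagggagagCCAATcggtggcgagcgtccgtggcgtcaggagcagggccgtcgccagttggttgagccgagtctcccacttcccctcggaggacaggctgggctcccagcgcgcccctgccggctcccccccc
The Msx1 window held CCAAT at -91 and its reverse complement ATTGG at -54. The Msx2 window held CCAAT at -124 and the homeodomain letters TAATTA, which read the same on both strands, at -187. TAATTA occurred in 5.29% and CCAAT in 37.4% of all windows. Both whole windows were rich in G and C, at 70% for Msx1 and 61% for Msx2, against a median of 52.7% over the table. Of the other windows, those of Pax8 and Emx2 also held CCAAT, Emx2 held TAATTA and Tfcp2l1 held TATAAA at -28. Foxa2 had 3 windows. The first held AACNGGT at -54 and CCAAT on the other strand at -68, and the third held TATAAA on the other strand at -208. The one whose last bases occur in Foxa2-202, to which 100% of the gene's counts were assigned, held none of the motifs. The Emx2 window and the Foxa2 windows after the first lie inside the annotated genes.

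Sox9 (ENSMUSG00000000567, chromosome 11, 112782224 to 112787760, plus strand) rose to a peak in estrus. Proestrus uteri had 38.8, 44.7 and 41.6 CPM, estrus uteri 76.7, 89.8 and 88.8 CPM, metestrus uteri 22.8, 32.8 and 63.2 CPM and diestrus uteri 22.9, 24.2 and 11.9 CPM. The 3 estrus values lay above the other 9, and metestrus 7, at 63.2 CPM, stood apart from the other metestrus uteri. The F test gave an adjusted p of 0.00194, and diestrus was 4.28-fold below estrus (log2 -2.10 ± 0.31, adjusted p = 0.000461), both kept without any 1 library.

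The steps of Sox9 into and out of estrus passed the threshold narrowly. From proestrus to estrus the log2 change was 1.03 ± 0.29 (adjusted p = 0.0274), and it was lost without any 1 of the 6 libraries compared, with adjusted p-values of 0.0935, 0.0634 and 0.0872 without proestrus 1, 2 and 3 and 0.0513, 0.0889 and 0.0826 without estrus 3, 4 and 5. From estrus to metestrus it was -1.11 ± 0.29 (adjusted p = 0.0364). That call was lost without proestrus 1 (0.053), proestrus 2 (0.053), proestrus 3 (0.0542), estrus 3 (0.068), estrus 4 (0.112), estrus 5 (0.109), metestrus 5 (0.0615), metestrus 6 (0.12) or diestrus 3 (0.0515) and in a fit to the 6 libraries compared (0.11). Without metestrus 5 and 7 the log2 change was -1.35. Proestrus minus diestrus was 1.07 ± 0.32 (adjusted p = 0.0558), and passed without metestrus 5 (0.0179) or 7 (0.00779), with library totals (0.0478), without a filter (0.00694), with DESeq2 (0.0305) and in a fit to the 6 libraries compared (0.0113).

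Grhl2 (ENSMUSG00000022286, chromosome 15, 37233036 to 37363569, plus strand), the grainyhead factor of epithelial junctions, was lowest in diestrus. It measured 19.4, 30.2 and 18.3 CPM in proestrus, 16.7, 17.2 and 16.5 CPM in estrus, 15.6, 13.9 and 11.9 CPM in metestrus and 7.98, 3.95 and 8.49 CPM in diestrus. Each stage lay wholly below the one before it, from proestrus to diestrus (F test, adjusted p = 0.00607). Proestrus exceeded diestrus 3.32-fold (log2 1.73 ± 0.30, adjusted p = 0.00305) and diestrus lay below estrus by 1.30 ± 0.31 (adjusted p = 0.00816). The 3 steps between neighbouring stages in that order, at -0.43 ± 0.27, -0.28 ± 0.28 and -1.02 ± 0.32, did not pass (adjusted p = 0.309, 0.593 and 0.211).

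The genes that Grhl2 is known to regulate in epithelia were read from a list of 10, of which 9 were tested and 7 differed over the cycle. The 3 with the smallest p were St14, a membrane serine protease, Cdh1, the gene of E-cadherin, and Rab25, a small GTPase of epithelial traffic (adjusted p = 0.000133, 0.000373 and 0.000568). St14 was at 52.5, 60.9 and 44.2 CPM in proestrus, 82.3, 85.8 and 93.0 CPM in estrus and 18.4, 13.8 and 20.4 CPM in diestrus. It peaked in estrus, where Grhl2 did not. Rab25 was highest in proestrus, at 70.7, 83.6 and 71.6 CPM, and its stage means had the same order as those of Grhl2, down to 33.4, 19.8 and 31.7 CPM in diestrus. In diestrus against estrus 8 of the 9 were lower and none higher, with a median log2 difference of -1.34 against 0.00 over all genes. Of these 10 genes 4, Cdh1, Epcam, Cldn4 and Spint1, also belong to the pan-epithelial marker list, so the lists are not separate evidence.

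Tfcp2l1 (ENSMUSG00000026380, chromosome 1, 118627945 to 118685168, plus strand), the other grainyhead-related factor, was not called in the F test or between any 2 stages. It had 68.5, 118 and 47.2 CPM in proestrus, 88.5, 64.6 and 101 CPM in estrus, 35.3, 49.2 and 171 CPM in metestrus and 80.3, 58.8 and 57.7 CPM in diestrus. The stages overlapped throughout, and metestrus 7 alone held the highest value of all 12 uteri. The F test gave an adjusted p of 0.892, and 0.142 without metestrus 7. With SEs of 0.46 to 0.47 on the log2 scale, its 6 differences between stages lay between -0.37 and 0.24.

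Pax8 (ENSMUSG00000026976, chromosome 2, 24420560 to 24475599, minus strand), a paired-box factor of the Müllerian tract, differed between stages by a small factor. It had 57.6, 71.2 and 65.5 CPM in proestrus, 68.0, 71.5 and 70.5 CPM in estrus, 55.0, 54.3 and 67.4 CPM in metestrus and 45.9, 37.1 and 44.1 CPM in diestrus. The 3 diestrus values lay below the other 9. Its adjusted p in the F test was 0.0107, and 0.0583 without diestrus 4. Diestrus was 1.65-fold below estrus (log2 -0.73 ± 0.14, adjusted p = 0.00294), and proestrus was 1.53-fold above diestrus (0.61 ± 0.14, adjusted p = 0.0172). The latter call was lost without proestrus 2 (0.085), proestrus 3 (0.0563) or diestrus 4 (0.082) and with limma (0.0673).

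Emx2 (ENSMUSG00000043969, chromosome 19, 59458372 to 59465357, plus strand), a homeobox factor of the developing tract, stayed within a narrow range. It had 132, 123 and 91.9 CPM in proestrus, 145, 137 and 131 CPM in estrus, 150.4, 111 and 107 CPM in metestrus and 101, 107 and 115 CPM in diestrus. The F test did not pass (adjusted p = 0.347), and the largest difference, diestrus minus estrus, was -0.36 ± 0.16 (adjusted p = 0.134), although the 3 estrus uteri lay above the 3 diestrus uteri.

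The levels of 5 factors carry an uncertainty of annotation. Exons of Elf3, Grhl2, Pax8 and Emx2 overlap exons on the opposite strand, of Gm26642 over 162 bases, Gm16136 over 169, Gm13415 over 367 and Emx2os over 264. An exon of Tfcp2l1 overlaps the small nuclear RNA gene Gm23497 on the same strand over 130 bases. None of these genes had a row in the tables, and the use of strand in the counting is not given in the sources used here, so reads of each pair cannot be told apart. Estimated counts of Grhl2 went to the processed transcript Grhl2-205 for 64.6% and those of Pax8 to the retained-intron transcript Pax8-206 for 61.9%, so their levels are not those of a coding transcript alone.

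Relatives of the factors were read from a list of 19 genes, of which 8 were tested and 4 differed over the cycle, a count that was 2 without estrus 4, without estrus 5 and with DESeq2. These were Sox17, an epithelial SOX factor needed for uterine glands, Elf1, a widely expressed ETS factor, Sox4 and Pax2. Sox17 had 49.1, 45.3 and 48.2 CPM in proestrus, 31.5, 33.7 and 38.0 CPM in estrus, 56.5, 54.3 and 42.9 CPM in metestrus and 108, 111 and 92.8 CPM in diestrus (adjusted p = 4.5e-05). Its order was thus the reverse of that of Sox9 at both ends, lowest in estrus and highest in diestrus. Sox4 was at 1649.8, 1956 and 1688 CPM in estrus and 292, 374 and 279 CPM in proestrus (adjusted p = 0.0133), with metestrus 5, at 2121 CPM, unlike metestrus 6 and 7, at 298 and 366 CPM. Elf1 ran from 79.2, 103 and 108 CPM in estrus to 55.8, 62.3 and 54.9 CPM in diestrus (adjusted p = 0.0122), and was not called without estrus 4 (0.0642) or 5 (0.0632). Pax2 stood at 14.5, 17.3 and 17.0 CPM in diestrus and 25.7, 30.7 and 24.9 CPM in proestrus (adjusted p = 0.0347). Its call was lost without any 1 of 9 libraries, with 0.0572, 0.0744 and 0.0535 without proestrus 1, 2 and 3, 0.061, 0.0856 and 0.0625 without estrus 3, 4 and 5, 0.0955 without diestrus 3, 0.0691 without diestrus 4 and 0.0668 without diestrus 5.

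The tested relatives Elf4, Elf2, Ubp1 and Tfcp2 did not pass (adjusted p = 0.389, 0.649, 0.767 and 0.781). Of the 11 relatives not tested, Foxa1, Foxa3, Msx3 and Grhl3 reached at most 0.572, 0.572, 1.86 and 1.08 CPM in any library, and Emx1 had 0 counts in all 12. Grhl1 reached 2.7 CPM, Elf5 2.07 CPM, Spdef 2.38 CPM, Sox8 4.77 CPM, Sox10 2.16 CPM and Pax5 1.79 CPM. Close paralogs of Foxa2, Msx1, Grhl2 and Emx2 were therefore near or below the limit of detection, apart from Msx2.

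Other epithelial factors gave 5 calls among 10 tested of 13 listed, namely Sox17, Ovol2, Dlx6, Dlx5 and Klf5. Ovol2, a zinc-finger factor that upholds epithelial identity, had 21.7, 24.8 and 19.8 CPM in proestrus and 1.99, 1.98 and 2.83 CPM in diestrus (adjusted p = 0.000826). Dlx6, a homeobox factor, had 32.5, 36.7 and 35.5 CPM in proestrus, 30.9, 38.3 and 33.9 CPM in estrus and 15.5, 19.8 and 17.5 CPM in diestrus (adjusted p = 0.00428). Both shared with Elf3 and Grhl2 a low diestrus level. Of the 12 pan-epithelial markers 11 were called over the cycle and 11 were lower in diestrus than in estrus, at a median log2 difference of -1.41. Against diestrus, proestrus was higher for 9 of the 12 and lower for 2, the claudin genes Cldn3 (71.3 against 142 CPM) and Cldn4 (1.83 against 5.81 CPM), so a low diestrus level did not hold for the whole list. Those with the smallest p were the keratin gene Krt7 (adjusted p = 5.49e-05), which had 404, 664 and 487 CPM in proestrus and 39.9, 26.7 and 58.9 CPM in diestrus, then Cdh1 and the protease inhibitor gene Spint2 (0.000373 and 0.000572).

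Factors of the mesenchyme differed in the other direction. Of 10 tested, 6 differed over the cycle, and 6 were higher in diestrus than in estrus, with none lower and a median of 1.05 against 0.00 over all genes. Hoxa10 and Hoxa11, homeobox factors of the uterine stroma, and Twist2 had the smallest p (adjusted p = 7.84e-05, 0.000388 and 0.00469). Hoxa10 had 103, 101 and 91.6 CPM in estrus and 327, 369.8 and 363 CPM in diestrus. Its order of stages, with estrus lowest and diestrus highest, was that of Msx1.

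Of 13 genes of BMP and WNT signalling around the Msx factors, 8 differed over the cycle. The count was 5 without any 1 of the 3 proestrus libraries, the 3 estrus libraries or diestrus 3. It was 4 without diestrus 5 and 3 with limma. Id1, a target of BMP signalling, had 63.3, 41.5 and 49.2 CPM in proestrus, 16.1, 17.2 and 21.1 CPM in estrus, 39.4, 41.7 and 50.1 CPM in metestrus and 46.4, 44.5 and 41.9 CPM in diestrus (adjusted p = 0.000657). It was thus low in estrus alone, the stage in which Msx1 and Msx2 were both at their lowest mean. Id3 and the ligand gene Wnt11 followed (0.00598 and 0.00693). Id3 was lowest in proestrus, with 49.1, 32.3 and 33.5 CPM, and metestrus held 96.0, 60.6 and 96.6 CPM. Wnt11 ran from 0.57, 1.62 and 1.52 CPM in proestrus to 9.97, 18.8 and 7.36 CPM in diestrus, and lost its call without diestrus 4 (0.0546).

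Of the steroid receptor and response genes 2 of 5 tested differed, the progesterone receptor gene Pgr and Ihh, an epithelial ligand induced by progesterone. Pgr had 77.9, 71.5 and 81.1 CPM in estrus against 271, 221 and 282 CPM in proestrus and 307, 164 and 173 CPM in diestrus (adjusted p = 0.00321). Ihh, like Msx1 and Foxa2, was highest in diestrus, with 16, 14.3 and 22.1 CPM, and at or under 1.08 CPM in all proestrus and estrus uteri (adjusted p = 0.000101). Greb1 was the third by p and did not pass (0.0527), although it was called without metestrus 6 (0.015) or diestrus 3 (0.015), with DESeq2 (0.0327) and without a filter (0.0033). The count of this list was 4 without metestrus 6, without metestrus 5 and 7 and without a filter, and 1 where a mean of 20 counts was asked for.

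Other cell types were read from marker lists, and their part in the levels of the factors was not tested. Stromal genes summed to 9339 to 9466 CPM in proestrus, 7674 to 8192 in estrus, 5039.8 to 10999.7 in metestrus and 6768 to 9068 in diestrus, with 3 of 7 called. The calls were Pdgfra, Thy1 and Dcn (adjusted p = 8.07e-05, 0.00302 and 0.00468), and 6 of 7 were called without metestrus 5 5 without metestrus 6 and 7 without metestrus 5 and 7. Smooth muscle sums ran from 4959 to 9454 CPM with 2 of 5 genes called, Tagln and Myh11 (0.000678 and 0.00309). Endothelial sums ran from 1253 to 2035 CPM, mostly from Pecam1, which had its lowest mean in diestrus. Cdh5, Kdr, Tek and Emcn had theirs in proestrus. Of the 5 endothelial genes 0 were called by edgeR, 2 had an unadjusted p under 0.05 and 0 were called by DESeq2. There edgeR called 4 without metestrus 5, 1 without metestrus 7 and 2 without both. Leukocyte sums lay between 77.1 and 99.7 CPM in proestrus and between 212 and 299.7 CPM in estrus, with 4 of 5 tested genes called, and 2 of 5 without any 1 of proestrus 1, 2 or 3, estrus 3 or diestrus 3 and with limma. Mesothelial markers summed to between 58.6 and 110.4 CPM, with 1 of 4 called, Wt1, and 2 without metestrus 7. Wt1 had its highest mean in diestrus, 58.2 CPM, and its lowest in estrus, 24.7 CPM. The means of Msln and Upk3b were highest in estrus and that of Lrrn4 in proestrus, so Wt1 does not stand for the list. Of the oviduct genes only Ovgp1 was tested and called (0.0344), and it was lost with limma (0.076) and without any 1 of proestrus 1 (0.065), proestrus 2 (0.0673), estrus 3 (0.119), estrus 4 (0.122), estrus 5 (0.09) or diestrus 5 (0.0535). Proliferation genes, 4 of 6 called, summed to 351 to 503 CPM in proestrus and 123 to 132 in estrus. Pcna, Mcm5 and Mcm2 had the smallest p (0.00161, 0.00492 and 0.00656).

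Because epithelial markers themselves varied with the stage, the factors were also expressed relative to epithelial markers, as CPM per 100 CPM of the geometric mean of Epcam, Cdh1, Krt8, Krt18, Krt19 and Cldn7. These 6 are part of the 12 pan-epithelial markers, all 6 were lower in diestrus than in estrus, and the scale depends on their choice: Cldn3, which was highest in diestrus, and Cldn4 and Krt7 are among those not used. With all 12 in their place the F test again called 8 of the 10 factors, Tfcp2l1 narrowly (adjusted p = 0.0497), and again neither Sox9 (0.274) nor Grhl2 (0.0814). The geometric mean of the 6 was 163, 204 and 155 CPM in proestrus, 167, 189.9 and 181 CPM in estrus, 119, 97.1 and 51.7 CPM in metestrus and 70.9, 59.1 and 82.4 CPM in diestrus. Its stage means were 174, 179, 89.2 and 70.8 CPM, so a gene unchanged in CPM rises on this scale in metestrus and diestrus. On this scale Elf3 remained lower in the later stages, at 143, 143 and 154 in proestrus, 179.7, 149.7 and 192 in estrus, 77.3, 64.3 and 31.1 in metestrus and 27.4, 28.4 and 28.8 in diestrus. Elf3 thus fell by more than the markers did, with a diestrus mean of 28.2 against 174 in estrus. Msx1 was spread more widely than in CPM, with means of 64.3, 29.0, 195 and 416 in the order of the cycle, and its 3 diestrus values, 421, 438 and 391, lay above all others. Foxa2 had means of 1.23, 2.31, 7.06 and 17.0.

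**Figure D4:**
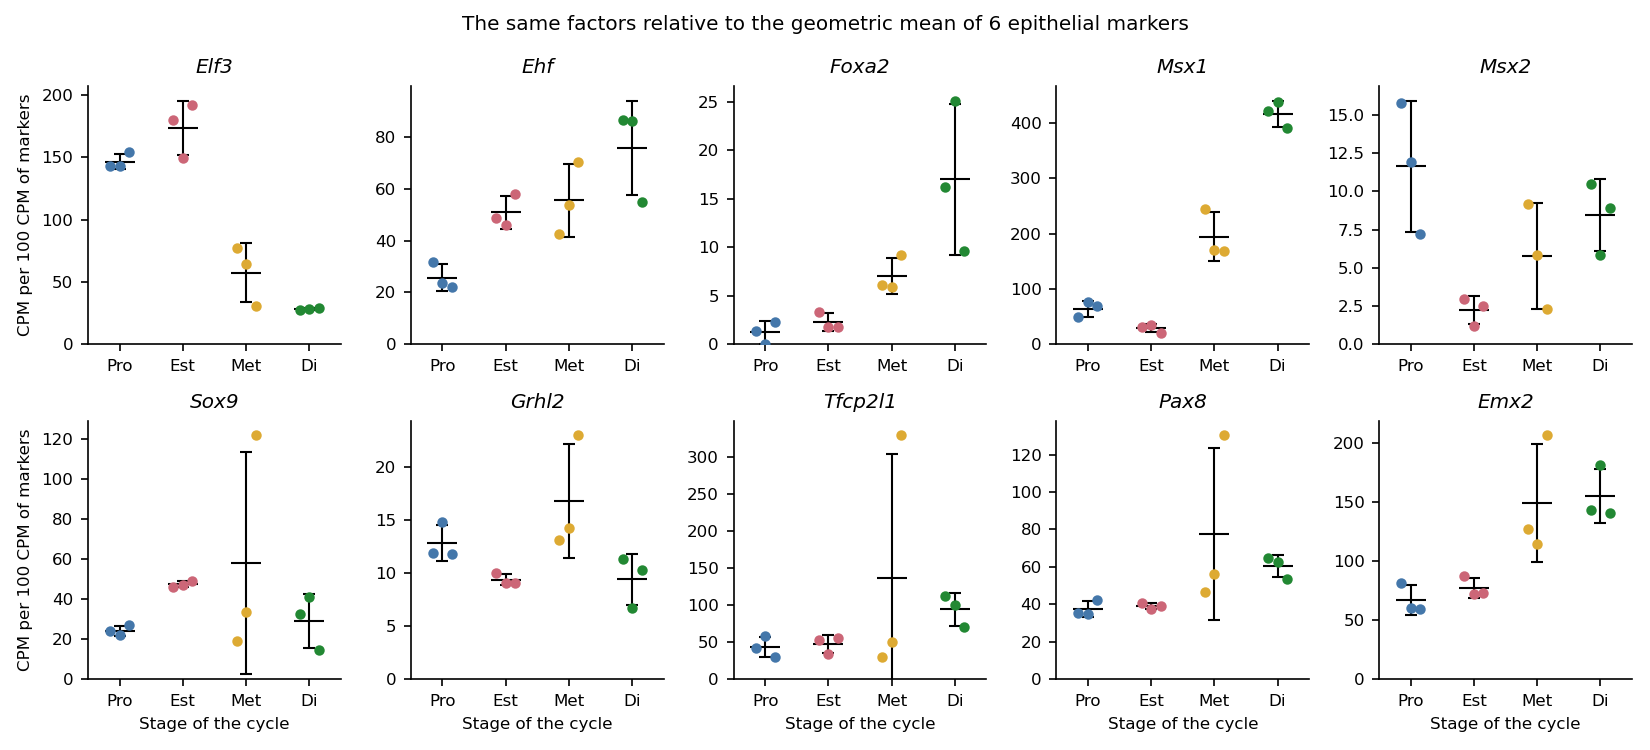
Level of each factor per 100 CPM of the geometric mean of 6 epithelial markers (y axis, linear, from 0) by stage, each point 1 uterus, with the mean and SD in black (n = 3, the lower bar of Tfcp2l1 in metestrus cut at 0). Elf3 stays low in diestrus on this scale, while the stages of Grhl2 draw together. Cdh1 and Epcam of the divisor are listed among the genes that Grhl2 regulates.

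Relative to the 6 markers the order of Ehf changed, from highest in estrus to highest in diestrus, with means of 25.7, 50.9, 55.5 and 75.9 around the cycle. Grhl2 had means of 12.8, 9.39, 16.8 and 9.42 and was no longer called (adjusted p = 0.169). Cdh1 and Epcam of the divisor are also on the list of genes that Grhl2 is known to regulate. The scale is therefore not separate from Grhl2, and no conclusion is drawn from the lost call. Sox9 was not called either (0.066), and passed without metestrus 5 (0.0029), metestrus 6 (0.0289), metestrus 7 (0.0115) or diestrus 4 (0.0471). Msx2 kept its lowest mean in estrus, 2.23, against 11.6 in proestrus (adjusted p = 0.00332). Emx2, flat in CPM, had 67.0 and 77.4 in proestrus and estrus and 149 and 155 in metestrus and diestrus (adjusted p = 0.00179). This rise follows from the divisor, which was lower in the latter stages. Tfcp2l1 passed (0.0273), with 329.6 in metestrus 7. Pax8 passed too (0.0232) but in another direction than in CPM, with means of 37.5, 39.1, 77.5 and 60.3 and 130.2 in metestrus 7. Its called differences turned, diestrus minus estrus from -0.73 to 0.60 ± 0.34 (adjusted p = 0.106) and proestrus minus diestrus from 0.61 to -0.66 ± 0.34 (0.0748). The signs also turned for Ehf in diestrus minus estrus, from -0.80 to 0.55 ± 0.30 (0.102), and in metestrus minus estrus, from -0.98 to 0.09 ± 0.31 (0.799), and for Sox9 in metestrus minus estrus, from -1.11 to 0.21 ± 0.46 (0.675). Tfcp2l1 lost this call without proestrus 1 (0.0507), proestrus 3 (0.0673) or estrus 4 (0.0535), and Pax8 without proestrus 1 (0.0555) or 2 (0.0539). In all 8 of 10 factors were called on this scale, and 84.4% of all tested genes were. The count is therefore near the background and is not a result about the factors. The same fit called 75.1% of all genes for diestrus against estrus and 79.2% for proestrus against diestrus. A rise or a turned sign that follows the lower divisor is likewise not a result about the factors.

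For the 8 factors called over the cycle, the 3 genes whose log2 CPM followed theirs most closely over the 12 uteri were taken from the tested genes with a mean of at least 10 CPM. The measure, Pearson's r, is a description over samples that share their stage, and says nothing of shared function or control. Elf3 was followed by R3hdm4, Bcl9, which encodes a coactivator of beta-catenin, and Serinc2, at 0.98 each. Ehf had looser company in Rhoq, Xrn1 and Vcpip1, at 0.88 each. Foxa2 was followed by Zfp462 (0.90), Bcorl1 (0.90) and Klhl22 (0.89), and Msx1 by Kctd14 (0.97), the histone variant gene H2afv (0.95) and Thrsp (0.92). Msx2 was followed by Sem1 (0.97), Tardbp, which encodes an RNA-binding protein (0.94), and the calcium pump gene Atp2b2 (0.91). Sox9 was followed by Lrg1 (0.97), Gda (0.97) and Fxyd3 (0.96). Grhl2 was followed by Ubash3b (0.95), Lad1 (0.94) and Krt7 (0.94), the last of these a pan-epithelial marker above. Pax8 was followed by Acad12, Trpv6, the gene of an epithelial calcium channel, and Myo1d, at 0.94 each. All were picked for the highest r among 9439 genes, and not all differed over the cycle. Zfp462, Bcorl1, H2afv and Sem1 did not pass the F test (adjusted p = 0.102, 0.0596, 0.136 and 0.0591).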

How the data were processed

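Whole uteri of 12 mice, 3 per stage, were profiled by 3' TagSeq. The authors deposited 1 table per sample with an estimated count, a TPM value and an effective length in bases (another kind of value) for each of 119414 transcripts, per the file headers. FastQC, kallisto and DESeq2 are named in the submitters' processing notes, and the transcript set, genome build and use of strand are not given in the sources used here. The deposited estimated counts were unscaled, and 66.9% of those above 0 were not whole.

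Transcripts were matched to GENCODE M21 (GRCm38), which covered 97.7% of them, then summed per gene and rounded. Totals ran from 1652841 to 2200563, and a count of 3 came to 1.37 to 1.83 CPM. An edgeR 4.0.16 (R 4.3.3) quasi-likelihood model with TMM scaling, filterByExpr and stage as the only term was fitted to all 12 samples. Its F test and 6 two-sided contrasts were adjusted by Benjamini-Hochberg over 12052 genes at 0.05. A second fit scaled libraries to 6 epithelial markers. The code was tested on simulated data. Alternatives were other scalings and filters, DESeq2 1.42.0, limma 3.58.1 on log2(TPM + 1), fits to 2 stages, a replicate block, other markers and leaving out libraries. Motifs were searched in promoter windows of RefSeq (GRCm38.p6).

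All 10 members are named, with relatives in the same factor family and 3 genes like each called member. For most lists, up to 3 of the genes that rank first by p over the 4 stages are named, but for the leukocyte list none. All endothelial genes are named, for their part in the sum. The members and lists were chosen with earlier results of these data known.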

Additional observations from a re-analysis of the deposited data

How the results depend on the processing

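Over the 10 factors' tests and the alternatives run, 1430 values kept their side of the threshold, 30 newly passed and 59 no longer did. Direction was compared only for differences called in the main or the alternative fit, and 0 of these reversed. Uncalled differences could turn. That of Tfcp2l1 for metestrus against estrus ranged from -0.99 to 0.37 with each library left out in turn. The counts do not set the fit scaled to epithelial markers against the one in CPM, between which 5 of 20 called differences turned. With limma the count of genes called was 1743 over the cycle, 1215 for estrus against proestrus, 511 for metestrus against estrus, 6 for diestrus against metestrus, 609 for proestrus against diestrus (3 factors) and 157 for metestrus against proestrus. Without a filter diestrus against metestrus gave 256 genes and 1 factor, and metestrus against proestrus 935 genes and 2 factors. DESeq2 gave 129 genes and 1 factor for diestrus against metestrus. Fits to the 6 libraries compared gave 299 genes for metestrus against estrus, 42 genes and 0 factors for metestrus against proestrus, and 0 genes with edgeR for diestrus against metestrus, where 901 had an unadjusted p under 0.05. Without metestrus 5 and 7 the counts were 1582 genes for proestrus against diestrus, 33 for metestrus against proestrus, and 1 factor for diestrus against metestrus. The cause of these shifts was not tested.

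With each library left out in turn, the genes and factors called ranged from 1910 to 3428 and 6 to 8 over the cycle, 1100 to 2414 and 1 to 4 for estrus against proestrus, and 341 to 1364 and 1 to 4 for metestrus against estrus. They ranged from 5 to 173 and 0 to 1 for diestrus against metestrus, 519 to 1281 and 3 to 7 for proestrus against diestrus, 78 to 1080 and 0 to 2 for metestrus against proestrus, and 1910 to 3146 and 6 to 7 for diestrus against estrus. Relative to epithelial markers they ranged from 9376 to 10917 and 6 to 9.

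Only estrus and diestrus shared more than 1 replicate number, so that no other pair of stages allowed a block, and their numbers did not pair the libraries (r of -0.08, 0.03 and -0.01 over 2000 genes for numbers 3, 4 and 5). A replicate block gave 2935 genes and 7 factors for diestrus against estrus, and the call it changed was that of Foxa2 (1.47, adjusted p = 0.0224). With library totals 81.2% of the genes called between metestrus and diestrus were higher in diestrus, against 59.3%. The share was 31.8% with DESeq2, 33.2% without a filter, 34.7% without metestrus 6, 91.7% without diestrus 5 and 27.8% without metestrus 5 and 7. Depth limited Foxa2 and Msx2, which a mean of 20 counts removed.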
